A study of Homo sapiens with 6 samples.

Results

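The 44 collagen chain genes were followed in H9, a human embryonic stem cell line, on day 9 of a protocol that steers it toward nephron progenitors, from which the kidney's filtering units form. Members were all protein-coding genes in the raw count table with a symbol made of COL, a number, A and a number, which gave 44 of 60107 gene IDs: 11 fibrillar chains, the 6 type IV chains of basement membranes and 27 other chains. The 2 groups had 3 libraries each. One group was grown in complete medium, which holds glutamine, and the other was deprived of glutamine from the start of the protocol until collection, so both groups had the same line, protocol and age. The labels do not say whether the replicates were separate cultures, and H9 is 1 line, so p-values measure the spread between these libraries only.

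Collagens are extracellular proteins in which chains wind into a triple helix. Fibrillar chains such as types I, II, III, V and XI pack into the banded fibrils of mesenchyme, cartilage, skin and tendon, and type IV chains form the meshwork of basement membranes, on which kidney epithelia and the glomerular filter rest. The remaining types decorate fibrils, form beaded filaments or short-chain networks, or span the cell membrane. Collagen chains are rich in glycine and in proline, and cells can build proline from glutamate, which glutamine supplies.

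The type IV genes lie in the genome as pairs that face away from each other, so that each pair has 1 shared stretch of DNA between its starts. These stretches are shown because the type IV chains are described below pair by pair. The RefSeq starts lie 127 bases apart for COL4A2 and COL4A1, 380 for COL4A5 and COL4A6, and 419 for COL4A3 and COL4A4. GENCODE 29, used for gene positions below, places some starts elsewhere. There COL4A3 and COL4A4 are 112 bases apart, and COL4A1 and COL4A2 overlap by 1421 bases. By that annotation the stretches shown for these 2 pairs lie partly or wholly inside the genes. The first sequence is the whole interval between the starts and the other sequences are the 250 bases before the start of the first-named gene, all on the plus strand of GRCh38.p14 as RefSeq gives it, 5′ to 3′. Capitals mark the CCAAT box (CCAAT), the GC box (GGGCGG) and the TATA box (TATAAA), searched on both strands. No 2 of these matches overlap.
COL4A2 and COL4A1, chr13:110307158-110307283: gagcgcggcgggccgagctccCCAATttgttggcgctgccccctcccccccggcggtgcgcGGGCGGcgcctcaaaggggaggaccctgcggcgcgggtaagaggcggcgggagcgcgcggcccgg
COL4A5 and COL4A6, chrX:108439588-108439837: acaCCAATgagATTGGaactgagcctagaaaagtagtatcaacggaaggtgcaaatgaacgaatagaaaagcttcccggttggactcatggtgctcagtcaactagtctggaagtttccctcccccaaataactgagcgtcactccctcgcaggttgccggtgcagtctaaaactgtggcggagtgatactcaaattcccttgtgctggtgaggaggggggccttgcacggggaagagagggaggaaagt
COL4A3 and COL4A4, chr2:227164374-227164623: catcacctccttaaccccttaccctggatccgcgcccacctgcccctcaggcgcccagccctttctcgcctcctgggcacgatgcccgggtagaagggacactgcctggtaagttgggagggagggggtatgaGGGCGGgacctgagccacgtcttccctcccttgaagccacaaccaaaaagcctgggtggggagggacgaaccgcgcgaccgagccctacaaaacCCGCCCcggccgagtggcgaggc
The COL4A2 and COL4A1 interval held 1 CCAAT box and 1 GC box in 126 bases and had a GC content of 80.2%. Of 35097 RefSeq promoter windows, 21.1% had a CCAAT box and 34.6% a GC box in the 126 bases before the start. The COL4A5 and COL4A6 stretch held 2 CCAAT boxes and no GC box at a GC content of 51.2%, and that of COL4A3 and COL4A4 held 2 GC boxes and no CCAAT box at 66.4%. In 250 bases, 32% of windows had a CCAAT box, 42.6% a GC box and 10.7% a TATA box, and the median GC content was 58%. None of the 3 type IV stretches held a TATA box. A promoter window was present for 32 of the 44 chains. The matches describe letters only and say nothing of a factor's binding.

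Libraries held 78220507 to 84746566 counts. CPM is the count scaled to a common library size after TMM normalization. Replicate 1 with glutamine stood apart from its group: on log2 CPM across genes, which are no replicates of each other, its Pearson correlation was 0.98 with replicate 2, 0.9803 with replicate 3, and 0.9926 to 0.9942 with the deprived group. Whether this library carries the right label cannot be settled from the files used here, and every mean and fold change from all 6 libraries includes it as labelled. The main results below are therefore given with all 6 libraries and again without that library. It was singled out from these same counts, and leaving it out takes away much of the spread within its group. Adjusted p-values from fits without it are therefore no independent support for a difference. The column headings of the count table name days 0 and 9, whereas the labels put all samples at day 9 and state which heading belongs to which sample. The direction of every comparison rests on that statement.

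Chains of the collagen family went both ways between the groups, and with all 6 libraries no single chain passed the test. The filter on low counts kept 42 chains and left out COL6A5 and COL20A1, which had at most 3 and 14 counts in a library. With edgeR's quasi-likelihood test 0 of the 42 had an adjusted p under 0.05, where the share over all 22613 genes tested was 0.00442%, which is 1 gene. At an unadjusted p under 0.05 there were 24 chains, 14 higher and 10 lower without glutamine, against 29.7% of all genes. DESeq2 called 17 of 42 chains (40.5%) against 14% of all genes it adjusted over, and limma-voom called 0. The 10 higher chains in DESeq2 stood beside 7.54% of all genes, and the 7 lower chains beside 6.44%. The smallest adjusted p among the chains in edgeR was 0.068, and 15 of the 42 (35.7%) were under 0.1, a threshold chosen after the data were seen, against 14.5% of all genes. Of these, 9 were higher, beside 7.3% of all genes, and 6 were lower, beside 7.23%.

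Without replicate 1 with glutamine, 28 of the 42 chains (66.7%) passed edgeR's test, against 41.3% of all genes: 16 were higher (22.3% of all genes) and 12 lower (19% of all genes). Of these, 13 differed by more than 1 on the log2 scale upward and 6 downward, where all genes gave 9.45% and 4.96%. With all 6 libraries, the 3 libraries of one group lay beyond all 3 of the other for 20 chains (47.6%) against 34.2% of all genes. Higher without glutamine were 13 of the 42 against 17.3% of all genes, and lower were 7 against 16.9%, so the share on the lower side, 16.7%, was near that of all genes. For 25 of the 42 chains (59.5%) replicate 1 with glutamine lay nearer the group without glutamine than the other libraries of its own group, on log2 CPM, close to the 62% over all genes. Where the other 2 libraries with glutamine were apart from the deprived group by over 1 on the log2 scale, that held for 14 of 18 chains and for 84.7% of 2471 genes.

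**Figure D1:**
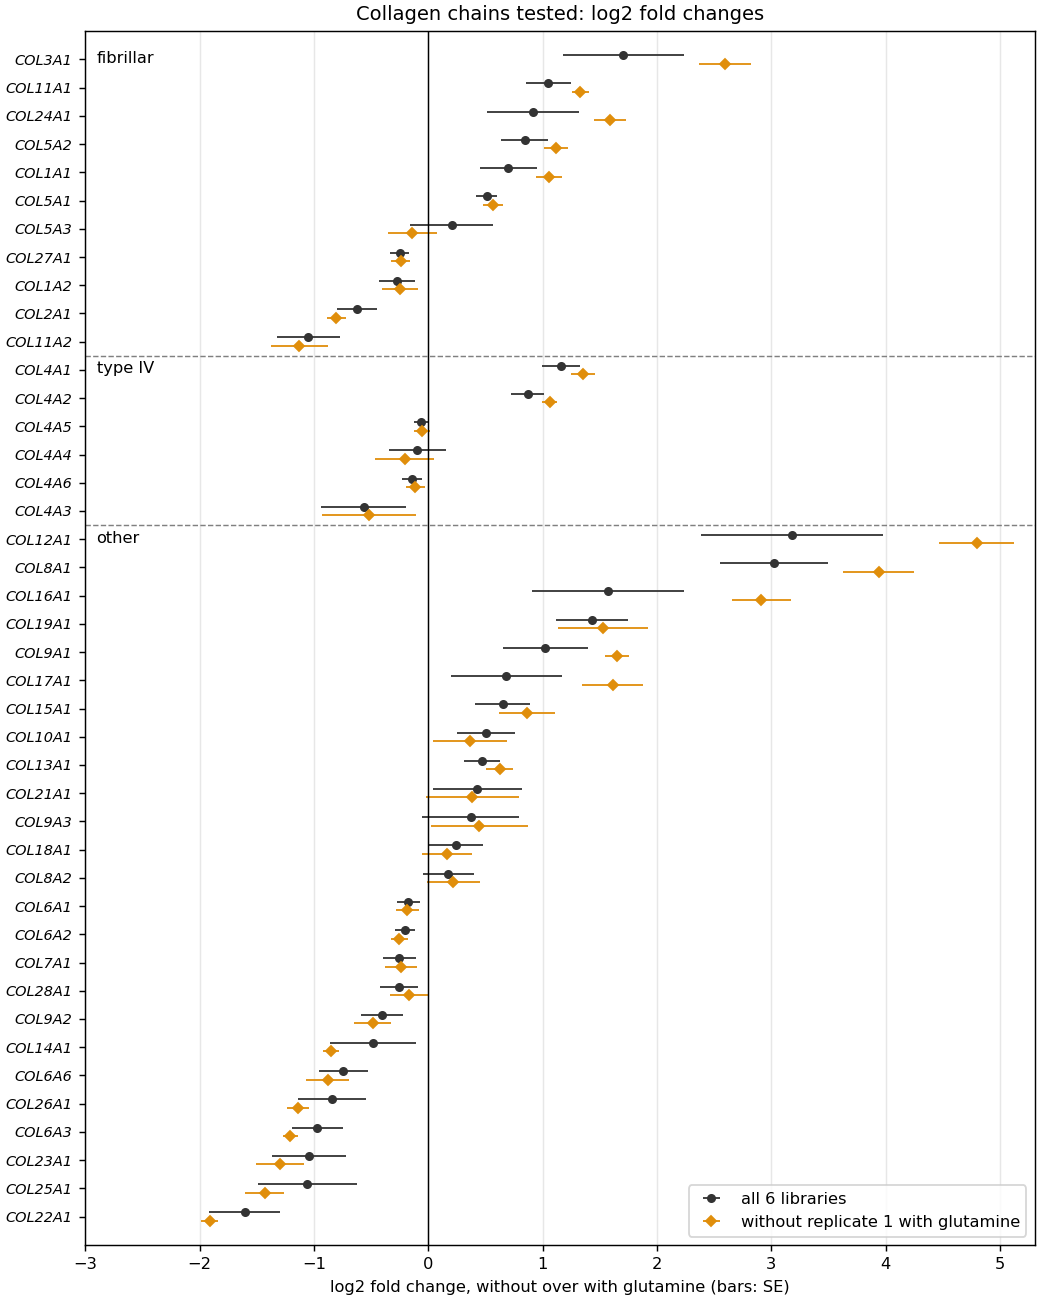
Log2 fold change (x axis, without over with glutamine; bars are SE) of the 42 chains tested, grouped by class on the y axis, with all 6 libraries (circles) and without replicate 1 with glutamine (diamonds). COL12A1 and COL8A1 lie farthest to the right, at 3.18 and 3.02 with all libraries, COL22A1 lies farthest to the left at -1.61, and for most chains far from 0 the diamonds lie farther out.

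The classes did not move as units. The median log2 fold change was 0.51 over the 11 fibrillar chains, -0.08 over the 6 type IV chains and 0.18 over the 25 other chains tested, beside 0.001 over all genes tested. A median weighs each chain alike, whatever its level. That of other chains is the value of COL8A2, at 0.917 to 1.49 CPM. The type IV median lies between COL4A5 and COL4A4, the latter at 38 to 60 counts. The mean summed levels per length, described below, moved the other way for these 2 classes, with overlap for other chains. Without replicate 1 with glutamine the medians were 0.57, -0.09 and 0.16, beside 0.01. Other omissions changed signs. The type IV median was 0.029 without replicate 2 with glutamine, and that of other chains was -0.142 without replicate 1 of the deprived group. DESeq2 called 6 of 11 fibrillar chains, 2 of 6 type IV chains and 9 of 25 others, beside 14% of all genes. In edgeR without replicate 1 with glutamine, calls were 9 fibrillar chains (6 higher, 3 lower), 2 type IV chains (both higher) and 17 others (8 higher, 9 lower), beside 41.3% of all genes. The type IV share, 33.3%, was below that of all genes. Each class thus held chains on both sides of 0, and none of them passed edgeR's test with all libraries.

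Levels of different chains are compared only per length, as CPM per kilobase of the longest coding transcript. Over all 6 libraries COL1A2 had the highest mean level at 159 CPM per kilobase. COL2A1 followed at 140, COL3A1 at 120, COL4A2 at 95.9 and COL4A1 at 74.0. Ranges over the 6 libraries overlapped for COL1A2 (113 to 180) and COL2A1 (101 to 197), and COL3A1 ran from 27.1 to 230. The order differed by group. With glutamine the means were 174.2 for COL1A2, 170.2 for COL2A1 and 56.24 for COL3A1. Without it COL3A1 was highest at 183.5, then COL1A2 at 144.2, COL4A2 at 123.9 and COL2A1 at 110.4. The 10 highest chains held 80.6% of the summed level of all 44. COL6A5 was the lowest, at 0.00272. The whole family took 0.594%, 0.538% and 0.536% of all counts in replicates 1, 2 and 3 with glutamine, and 0.63%, 0.682% and 0.702% in those without.

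Summed over type IV chains, the level per length was 220, 178 and 175 CPM per kilobase in replicates 1, 2 and 3 with glutamine and 288, 313 and 296 without, so every library without glutamine lay above all with it. Fibrillar chains summed to 557, 474 and 507 with glutamine and to 519, 617 and 704 without, and these ranges overlapped. Other chains summed to 233, 331 and 320 with glutamine and to 271, 230 and 223 without, also with overlap. As a share of the family's summed level, type IV chains made up 17.5% to 21.7% with glutamine and 24.2% to 27% without. Of the type IV chains only COL4A1 and COL4A2 separated the groups, and 4 of the 6 had a log2 fold change below 0. Sums over the members carry no test here, and fewer cells that express a chain cannot be told apart from less of its RNA per cell in bulk samples.

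**Figure D2:**
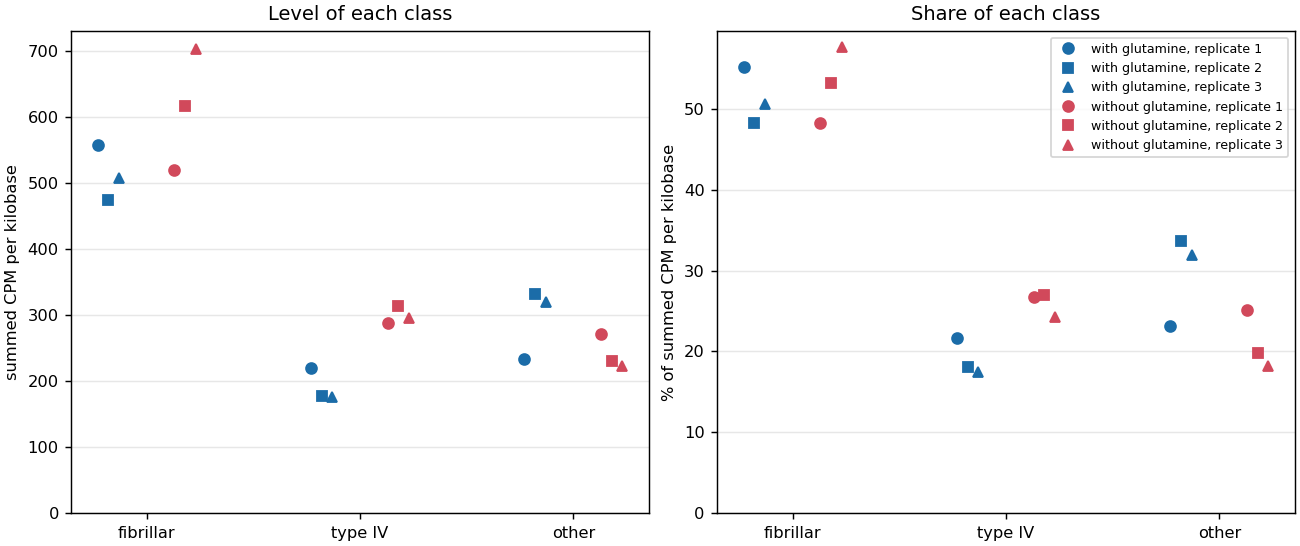
Summed CPM per kilobase (left) and share of the family's sum in percent (right) of fibrillar, type IV and other chains in each of the 6 libraries (blue with glutamine, red without; marker shape gives the replicate). The type IV sum separates the groups in both panels, at most 220 with glutamine and at least 288 without on the left. Among single type IV chains only COL4A1 and COL4A2 do so. The points of the fibrillar and other chains overlap.

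Among fibrillar chains, COL3A1, COL5A1, COL5A2 and COL11A1 were higher in all 3 libraries without glutamine than in any with it, and COL2A1, COL11A2 and COL27A1 were lower. COL3A1 (ENSG00000168542, chromosome 2, 188974320 to 189012746), the chain of type III fibrils in soft connective tissue, was at 597, 150 and 188 CPM with glutamine (replicates 1, 2 and 3) and reached 699, 1078 and 1275 without. The groups did not overlap, but replicate 1 with glutamine lay far above its group. The log2 fold change was 1.71 (edgeR adjusted p 0.099, SE 0.53, DESeq2 adjusted p 0.079), a 3.26-fold higher level. It was 2.59 without that library, or 6.03-fold, at an edgeR adjusted p of 2.05e-05.

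Both main type V chains, which help to start type I fibrils, were above the libraries with glutamine in all 3 libraries without it. COL5A1 was at 212, 190 and 190 CPM with and 252, 285 and 307 without glutamine, with a log2 fold change of 0.51. COL5A2 was at 212, 127 and 137 CPM with and 244, 307 and 301 without, with a log2 fold change of 0.84. COL5A2 lies 19150 bases from COL3A1, the genes pointing toward each other. With all libraries edgeR called neither COL5A1 nor COL5A2 (adjusted p 0.068 and 0.0738). DESeq2 called both, at adjusted p of 0.000808 and 0.00115, and edgeR without replicate 1 with glutamine called both too. The remaining type V chain, COL5A3, had at most 0.73 CPM in any library, and its log2 fold change of 0.21 became -0.14 without that library.

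Type I chains, the main collagen of bone and skin, diverged from each other. COL1A1 (ENSG00000108821, chromosome 17) was at 454, 233 and 262 CPM with glutamine and 454, 494 and 592 without. Replicate 1 with glutamine overlapped the other group by a small margin, and the log2 fold change was 0.70 (edgeR adjusted p 0.126, SE 0.25). COL1A2 (ENSG00000164692, chromosome 7), its partner in the type I helix, was at 971, 889 and 968 CPM with glutamine and 610, 758 and 973 without. Those ranges overlapped, and the log2 fold change of -0.27 (edgeR adjusted p 0.283, SE 0.16) did not pass with any of the tools. COL1A1, without replicate 1 with glutamine, passed at a log2 fold change of 1.06 and COL1A2 was at -0.25 (edgeR adjusted p 7.17e-05 and 0.23).

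Cartilage-type fibrils are built from COL2A1, COL11A1 and COL11A2. COL2A1, the type II chain, was at 632, 960 and 998 CPM with glutamine and 624, 543 and 513 without. Every library without was below every one with, though replicate 1 with glutamine exceeded the nearest of them by a few CPM only. The log2 fold change was -0.62, with an adjusted p of 0.0859 in edgeR and 0.0141 in DESeq2. COL11A2 (chromosome 6) was at 14.0, 18.6 and 15.2 CPM with and 11.2, 6.56 and 5.25 without, a log2 fold change of -1.05 (edgeR adjusted p 0.0804, SE 0.28). In contrast to both, COL11A1 (ENSG00000060718, chromosome 1) was at 67.1, 40.1 and 41.7 CPM with and 96.7, 104 and 107 without glutamine. That made a log2 fold change of 1.05 (edgeR adjusted p 0.068, SE 0.20), opposite in sign to COL2A1 and COL11A2. Without replicate 1 with glutamine all 3 passed edgeR's test, at log2 fold changes of -0.80 for COL2A1, -1.13 for COL11A2 and 1.33 for COL11A1.

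The remaining fibrillar chains are COL24A1 and COL27A1. COL24A1 was at 18.2, 6.54 and 6.53 CPM with and 18.0, 17.3 and 23.6 without glutamine, so replicate 1 with glutamine sat inside the other group. The log2 fold change was 0.91 (edgeR adjusted p 0.18, SE 0.40, DESeq2 adjusted p 0.225), and 1.59 without that library (edgeR adjusted p 2.49e-05). COL27A1 differed little, at 62.5 to 70.7 CPM with and 53.7 to 61.0 without, although the groups did not overlap.

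**Figure D3:**
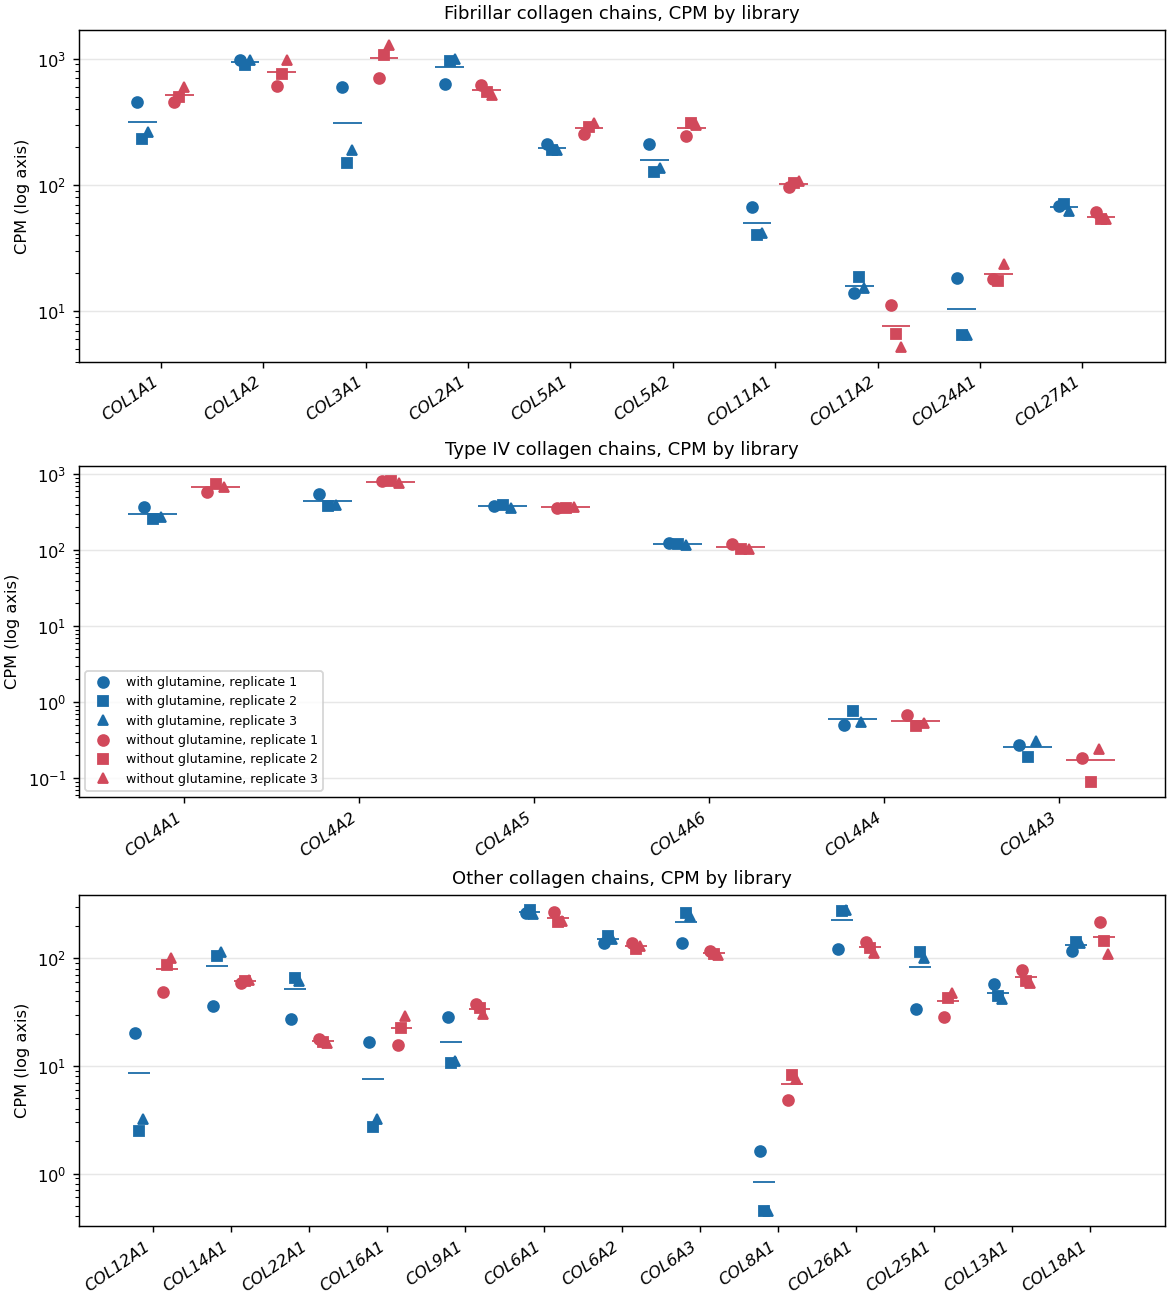
CPM on a log axis of all type IV chains and of selected fibrillar and other chains in each of the 6 libraries. The selection was not by level alone. Blue is with glutamine and red without, marker shape gives the replicate, and horizontal lines give the group means. Replicate 1 with glutamine (blue circles) lies apart from the other blue markers for chains such as COL3A1, COL24A1, COL12A1 and COL16A1 and with them for COL1A2, COL5A1 and COL4A5.

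In the basement membrane class, COL4A1 and COL4A2 had higher values in all 3 libraries without glutamine than in any with it, and the values of COL4A5 and COL4A6 overlapped. None of the 4 passed edgeR's test with all libraries. COL4A1 (ENSG00000187498, chromosome 13, 110148963 to 110307233, minus strand) makes the chain that basement membranes of nearly all tissues contain. It was at 377, 259 and 274 CPM with glutamine and 583, 753 and 692 without. COL4A2 (ENSG00000134871, 110305812 to 110513209, plus strand), its partner in the helix, was at 548, 383 and 390 CPM with and 819, 827 and 768 without. For neither gene did the groups overlap, and replicate 1 with glutamine was the highest of its group. COL4A1 had a log2 fold change of 1.16 (edgeR adjusted p 0.068, SE 0.16) and COL4A2 one of 0.87 (edgeR adjusted p 0.068, SE 0.14). DESeq2 called them at adjusted p of 1.91e-08 and 6.99e-06, and without replicate 1 with glutamine edgeR gave 1.35 and 1.06 (adjusted p 9.45e-06 and 2.96e-06). In GENCODE 29 both genes overlap by 1421 bases at their starts on opposite strands, and the strand setting of the counting is not stated.

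COL4A5 and COL4A6 lie on chromosome X and make chains found in specialised basement membranes, COL4A5 among them in the mature glomerular filter. COL4A5 was at 386, 399 and 365 CPM with glutamine and 362, 366 and 374 without, with a log2 fold change of -0.06 (edgeR adjusted p 0.531, SE 0.07). COL4A6 was at 125, 121 and 116 CPM with and 121, 103 and 104 without, with a log2 fold change of -0.14 (edgeR adjusted p 0.285, SE 0.08). Both genes overlapped between groups. For COL4A5 replicate 1 with glutamine lay between the other libraries of its group. Without that library the log2 fold changes were -0.05 and -0.12. COL4A3 and COL4A4, the other chains of the mature glomerular filter, were near the floor: COL4A3 had 7 to 24 counts in any library and COL4A4 38 to 60. None of the 6 type IV chains passed edgeR's test with all libraries, and the difference between the pairs was not tested.

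Chains of other types held the widest range. COL12A1 (ENSG00000111799, chromosome 6), a FACIT chain that sits on the surface of type I fibrils, was at 20.4, 2.48 and 3.21 CPM with glutamine and 48.5, 86.8 and 101 without. The groups did not overlap, and the lowest library without glutamine still had over 2 times the highest with it. The log2 fold change was 3.18 (edgeR adjusted p 0.0765, SE 0.80), and 4.79 without replicate 1 with glutamine (edgeR adjusted p 4.12e-06), which is 9.06-fold and 27.7-fold. The related FACIT chain COL14A1 went the other way in most libraries, at 36.2, 106 and 115 CPM with and 58.9, 61.8 and 62.7 without. For COL14A1 replicate 1 with glutamine lay below the other group, and the log2 fold change was -0.49 with all libraries and -0.85 without it. COL16A1 was at 16.6, 2.73 and 3.25 CPM with and 15.6, 22.4 and 29.4 without glutamine. Its log2 fold change of 1.57 (edgeR adjusted p 0.167, SE 0.67, DESeq2 adjusted p 0.191) became 2.91 without replicate 1 with glutamine (edgeR adjusted p 2.18e-05).

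COL22A1 (ENSG00000169436, chromosome 8), a FACIT chain of tissue junctions, was the lowest chain by fold change. It was at 27.2, 66.4 and 62.2 CPM with and 17.9, 16.8 and 16.4 without glutamine, with no overlap. The log2 fold change was -1.61 (edgeR adjusted p 0.0682, SE 0.31), with -1.91 lacking replicate 1 with glutamine. Type IX chains decorate cartilage fibrils: COL9A1 was at 28.5, 10.6 and 11.2 CPM with and 37.4, 34.6 and 30.1 without, whereas COL9A2 was at 22.6, 29.4 and 25.3 with and 24.7, 18.1 and 15.6 without. COL9A1 had a log2 fold change of 1.02 (edgeR adjusted p 0.128, SE 0.37), with no overlap between groups. COL9A2 had one of -0.41 (edgeR adjusted p 0.186, SE 0.18), with overlap. These chains of 1 trimer differed in sign, but the sign of COL9A2 rests on overlapping groups. COL9A3 rested on 1 library, at 7.18 CPM in replicate 1 without glutamine and 2.15 to 3.45 in all others. It overlaps TCFL5 on the opposite strand, which had 11519 counts to its 1764.

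Short-chain and beaded-filament collagens gave the next pattern. COL8A1 (ENSG00000144810, chromosome 3), a network chain of vessel and corneal matrix, was at 1.63, 0.448 and 0.445 CPM with and 4.80, 8.27 and 7.54 without glutamine. That is a log2 fold change of 3.02 (edgeR adjusted p 0.068, SE 0.47), or 8.1-fold, with all libraries of one group above all of the other. It was 3.94 without replicate 1 with glutamine (edgeR adjusted p 1.05e-05). Its partner COL8A2 stayed between 0.917 and 1.49 CPM in all libraries, with overlap. Type VI chains form beaded filaments around cells. In the mean over all libraries COL6A1 was the most abundant chain per length outside the fibrillar and type IV classes. In the mean with glutamine COL26A1 was higher, at 74.92 CPM per kilobase against 63.15. COL6A1 was at 264, 280 and 259 CPM with and 272, 217 and 221 without. The log2 fold change of COL6A1 was -0.18 (edgeR adjusted p 0.273, SE 0.10). COL6A2, its neighbour on chromosome 21 at a distance of 93047 bases, was at 139 to 160 CPM with and 121 to 140 without. COL6A3, on chromosome 2, was at 140, 266 and 249 CPM with and 116, 110 and 108 without, with no overlap and a log2 fold change of -0.97. COL6A6 was at 1.10 to 1.65 CPM with and 0.756 to 0.866 without, also with no overlap.

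Transmembrane chains split as well. COL13A1 was at 57.6, 44.4 and 41.9 CPM with and 78.4, 62.1 and 58.8 without, with no overlap and a log2 fold change of 0.47. COL25A1 and COL23A1 were lower at -1.06 and -1.05, and for both replicate 1 with glutamine overlapped the other group: COL25A1 was at 33.6, 115 and 99.9 CPM with and 28.7, 43.1 and 47.7 without, and COL23A1 at 13.1, 25.7 and 25.6 with and 14.3, 9.46 and 7.36 without. COL17A1, a chain of skin hemidesmosomes, had at most 1.17 CPM, and passed edgeR's test only without replicate 1 with glutamine, at a log2 fold change of 1.61. COL26A1 was at 122, 278 and 282 CPM with and 143, 124 and 113 without, again with replicate 1 inside the other group, and its log2 fold change was -0.84. COL18A1, a basement membrane chain, rested on 1 library: it was at 116, 141 and 140 CPM with glutamine and 218, 144 and 109 without, and its log2 fold change of 0.25 became -0.06 without replicate 1 of the group without glutamine. COL18A1 also overlaps SLC19A1 on the opposite strand, which had 16.3% of its counts. COL7A1, COL28A1 and COL21A1 had log2 fold changes between -0.26 and 0.43, with edgeR adjusted p of 0.267 to 0.479. COL15A1, COL10A1 and COL19A1 were higher in all 3 libraries without glutamine, at no more than 69, 18 and 29 counts in a library. COL10A1 and COL19A1 each lie across from a gene with far more counts, NT5DC1 with 20376 and LMBRD1 with 13122.

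Ratios between chains of one library are free of differences in library scaling. The ratio of COL1A1 to COL1A2 per length was 0.376, 0.211 and 0.218 with glutamine and 0.598, 0.524 and 0.49 without, so COL1A1 stayed below COL1A2 in all 6 libraries. The ratio of COL3A1 to COL1A2 was 0.6, 0.165 and 0.19 with and 1.12, 1.39 and 1.28 without, and COL2A1 to COL1A1 was 1.85, 5.47 and 5.05 with and 1.82, 1.46 and 1.15 without. None of these 3 ratios overlapped between groups. COL4A1 to COL4A2 was 0.675, 0.663 and 0.689 with and 0.699, 0.893 and 0.885 without, a smaller difference than that of COL4A1 to COL4A5, at 0.955, 0.634 and 0.735 with and 1.58, 2.01 and 1.81 without. COL4A5 to COL4A6 (3.11 to 3.75 over all libraries) and COL6A1 to COL6A2 (1.39 to 1.59) overlapped between groups. COL12A1 to COL14A1 had the widest span, 0.0129 and 0.0154 in replicates 2 and 3 with glutamine, 0.31 in replicate 1 and 0.454, 0.774 and 0.891 without. With 3 against 3 libraries an exact permutation test of a ratio cannot go below 0.1 (two-sided), so no p is given.

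**Figure D4:**
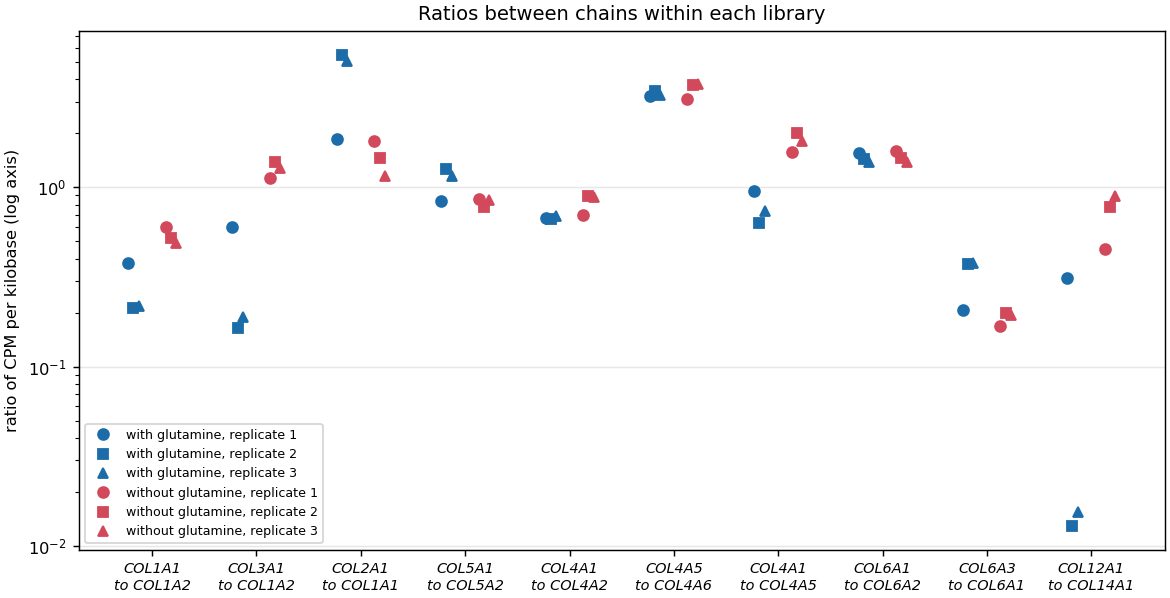
Ratio of CPM per kilobase between 2 chains (log axis) in each of the 6 libraries for 10 pairs (blue with glutamine, red without; marker shape gives the replicate). COL4A5 to COL4A6 and COL6A1 to COL6A2 stay level, between 3.11 and 3.75 and between 1.39 and 1.59, while COL1A1 to COL1A2, COL3A1 to COL1A2 and COL12A1 to COL14A1 are higher in all 3 red libraries.

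Genes that build, process, bind and break down collagen were read from lists chosen by role. None of the tested members of these lists passed edgeR's test with all libraries, and limma-voom called none. Over all genes, 29.7% had an unadjusted p under 0.05 and DESeq2 called 14%, the shares to read the list counts against. Of 21 genes for folding and modification, 4 were higher and 4 lower at an unadjusted p under 0.05, and DESeq2 called 4 (19%, beside 14% of all genes). PLOD2, which hydroxylates lysines for cross-links, was at 224, 176 and 184 CPM with and 301, 317 and 285 without, a log2 fold change of 0.63. P3H2, a prolyl hydroxylase that acts on type IV collagen, was at 53.9, 20.2 and 20.8 CPM with and 68.0, 96.8 and 101 without, at 1.49, and P4HB was at 0.25. CRTAP, a partner of prolyl 3-hydroxylation, was at 151, 240 and 255 CPM with and 127, 129 and 131 without, at -0.74, with COLGALT2 at -0.45 and PLOD3 at -0.29. The collagen chaperone SERPINH1 was at 237 to 283 CPM with and 264 to 294 without, with overlap.

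Of 14 processing and cross-linking genes, 2 were higher and 5 lower at an unadjusted p under 0.05 (29.7% of all genes), and DESeq2 called 4 (28.6%, beside 14% of all genes). TLL1, a procollagen C-proteinase, was at 0.0764 to 0.111 CPM with and 0.849 to 1.31 without, a log2 fold change of 3.66, while its relatives BMP1 and TLL2 were at 0.51 and 1.55. LOXL4 was at -0.74, PCOLCE2 at -0.50 and PCOLCE, which enhances procollagen cleavage, at -0.72. Of 10 receptor genes 5 were higher and 0 lower at an unadjusted p under 0.05, and DESeq2 called 4 (40%). ITGA1, the alpha chain of a collagen receptor with a preference for type IV, was at 29.9, 7.55 and 8.39 CPM with and 67.1, 102 and 99.9 without, a log2 fold change of 2.55. Its partner ITGB1 was at 0.42 and the fibril receptor DDR2 at 0.59, both without overlap between groups, and MRC2 and ITGA10 were at -0.21 and -0.82.

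Of 11 degradation genes tested, 4 were higher and 2 lower at an unadjusted p under 0.05 (29.7% of all genes), and DESeq2 called 5 (45.5%, beside 14% of all genes). The membrane collagenase MMP14 was at 0.43, CTSK at 0.63 and the inhibitor TIMP2 at 0.33, all without overlap, with FAP at -1.74, MMP9 at -1.59 and TIMP1 at -0.26. Of 13 genes of proline and glycine supply, 6 were higher and 1 lower at an unadjusted p under 0.05, and DESeq2 called 1 (7.69%, below the 14% of all genes). SLC1A4, a transporter of small neutral amino acids, was at 12.7, 8.72 and 9.55 CPM with and 17.8, 28.7 and 25.2 without glutamine, a log2 fold change of 1.21. SLC38A2 was at 0.23 and PYCR3, the last step of proline synthesis, at 0.29. GLUL, which makes glutamine, was at -0.22, and PYCR1 was at -0.14. In edgeR without replicate 1 with glutamine, calls were 12 of 21, 9 of 14, 8 of 10, 8 of 11 and 8 of 13 genes of these 5 lists, beside 41.3% of all genes. In the same order 6, 4, 6, 4 and 5 of the called genes were higher, beside 22.3% of all genes. Lower were 6, 5, 2, 4 and 3, beside 19%.

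Markers of other cells that make collagen were read beside the chains, and no marker passed edgeR's test with all libraries. The groups did not overlap for 34.2% of all genes (17.3% higher, 16.9% lower), DESeq2 called 14%, and edgeR without replicate 1 with glutamine called 41.3%. The counts below stand beside these shares. Summed levels of marker lists are plain CPM, not per length, so genes with the most counts weigh most in them. Of 10 stroma and fibroblast markers 5 were higher and 1 lower without overlap, and their summed level was 560 to 743 CPM with and 684 to 1010 without glutamine. DESeq2 called 6 of these 10, 4 higher and 2 lower. In edgeR without replicate 1 with glutamine all 10 were called, 7 higher and 3 lower, the lower ones being FOXD1, TWIST1 and PDGFRB. Within that list ACTA2 was at 12.7 to 16.2 CPM with and 46.6 to 101 without, LUM at 3.06 to 3.92 with and 6.48 to 7.81 without, and FOXD1 at 0.776 to 2.97 with and 0.509 to 0.625 without. Of 8 cartilage markers tested 4 were lower and 0 higher without overlap, and the sum was 148 to 275 CPM with and 101 to 126 without. DESeq2 called 4 of 7 that it adjusted, and edgeR without replicate 1 with glutamine called 6 of 9, 1 higher and 5 lower. SOX9, which drives cartilage genes, was at 45.0, 53.2 and 52.9 CPM with and 37.4, 32.5 and 33.5 without, and HAPLN1 at 13.9, 99.8 and 135 with and 9.55 to 13.4 without. ACAN, the cartilage proteoglycan aggrecan, had the opposite sign, at 31.8, 3.01 and 2.25 CPM with and 28.5, 20.5 and 19.0 without. Its log2 fold change was 0.88 with all libraries and 3.11 without replicate 1 with glutamine (edgeR adjusted p 3.83e-06). In all, 3 of the 8 had a log2 fold change above 0. Of 8 somite markers tested 2 were lower and 0 higher without overlap, at sums of 68.9 to 218 with and 72.4 to 92.9 without. DESeq2 called 4 of these 8, and edgeR without replicate 1 with glutamine called 6, all lower. PAX1 of that list was at 0 in 3 of the 6 libraries, and FOXA2 of the notochord list was at 0 in all 3 libraries with glutamine.

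Endothelial markers, listed because vessels make COL4A1 and COL4A2, went both ways: 2 of 6 were higher and 3 lower without overlap, at sums of 46.7 to 90.5 CPM with and 44.9 to 81.1 without. DESeq2 called 4 of these 6, and edgeR without replicate 1 with glutamine called 5. EMCN was at 14.6, 1.81 and 1.83 CPM with and 22.8, 42.5 and 53.7 without, KDR at 24.3, 82.3 and 69.8 with and 12.7 to 17.5 without, and PECAM1 had at most 1.14 CPM in a library. Podocyte markers summed to 51.5 to 92.1 CPM with and 66.6 to 91.3 without. The neural list summed to 18.3 to 34.4 CPM with and 18.8 to 23.4 without, with 1 of 6 higher and 2 lower without overlap, and the notochord list to 4.63 to 7.01 with and 4.74 to 5.51 without. No tested podocyte or notochord marker separated the groups. DESeq2 called 2 of 6 neural, 1 of 4 podocyte and 0 of 2 notochord markers, and edgeR without replicate 1 with glutamine called 5 of 6, 3 of 4 and 2 of 3. Nephron progenitor markers, the labelled cell type, were detected, at sums of 960 to 1630 CPM with and 1502 to 2023 without, and 2 of 10 were higher and 1 lower without overlap, near the share of all genes. DESeq2 called 3 of these 10, and edgeR without replicate 1 with glutamine called 10 of 10, 6 higher and 4 lower. Among them PAX8 was at 649, 194 and 167 CPM with and 848, 680 and 587 without, and SIX2 at 6.57, 34.8 and 27.9 with and 7.27 to 9.70 without. The part of these cell types in the collagen differences was not tested.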

How the data were processed

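Per the labels, 6 mRNA libraries from a stranded kit were sequenced from 1 end to 50 nt, and each held 78220507 to 84746566 counts. The submitters' processing notes name cutadapt, Trim Galore, FastQC, STAR 2.5.2b, DESeq2 and GRCh38, and the counting program, annotation and strand setting are not given in the sources used here. The authors deposited raw counts per Ensembl gene. They also deposited a normalized table, treated as a signal and used for no result. Columns were assigned through the sample descriptions.

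Gene symbols, positions and lengths came from GENCODE 29 (56531 of 60107 IDs matched, and the 3576 others held 0.148% of counts). The main test was edgeR's quasi-likelihood test (edgeR 4.0.16, R 4.3.3) on the counts, with legacy = FALSE, filterByExpr, TMM scaling and Benjamini-Hochberg adjustment over the 22613 genes kept, at a threshold of 0.05. SE is the absolute log2 fold change divided by the square root of F. DESeq2 1.42.0 and limma 3.58.1 gave alternatives. Positions of libraries used log2(CPM + 0.1). On simulated counts for the 6-library comparison, over 22168 genes, edgeR recovered 64.7% of changes of 1 and 94.8% of changes of 2 on the log2 scale, with 11 false calls. Changes were placed only in genes above 1 CPM on average. No simulated library was drawn toward the other group, as replicate 1 with glutamine was in the data. The rates therefore do not give the power of the test in these libraries.

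The members, lists and tests were chosen with earlier results of these data known. Every chain is accounted for. Full statistics go to up to 4 chains of a class with the largest absolute log2 fold change among those averaging 50 counts or more in either group, and to the most abundant chain of a class. From each pathway list up to 3 genes a direction with the smallest p are named under the same count minimum. Full statistics of COL1A1, COL9A1 and COL9A2, and values of marker genes, SERPINH1 and other chains, were added after their values were seen. Some genes of these lists are not reported here by name.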

Additional observations from a re-analysis of the deposited data

How the results depend on the processing

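The count of called chains, 0 with all libraries in edgeR, stayed 0 under DESeq2 size factors, upper quartile scaling, library size only, both filters on low counts, limma-voom and edgeR's legacy setting. It was 17 under DESeq2 and 15 at an adjusted p under 0.1. Leaving out 1 library gave 0 to 28 chains, the 28 without replicate 1 with glutamine and 0 in the other 5 fits. The count of called genes, 1, was 0 under upper quartile scaling, library size only, limma-voom and the legacy setting, 2 with no filter, 3041 under DESeq2, 3285 at an adjusted p under 0.1 and 0 to 9573 with 1 library left out. The cause was not tested. Chains without overlap between groups, 20, were 19 to 21 under the other scalings and 21 to 30 with 1 library left out. Groups of fewer libraries separate more easily for any gene, and the share over all genes is not given for these fits. The rise to 30 is therefore not read as a result about the chains. Same-numbered libraries had correlations of their deviations of -0.01, -0.01 and 0.04, so no pairing was seen, and with the replicate block 0 genes and 0 chains were called.

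Under every alternative, class medians of the log2 fold change moved by less than the spread between replicates in the class's median log2 CPM. That spread is one of levels, not of fold changes, and signs did change. With 1 library left out the medians ran from 0.441 to 0.588 for fibrillar chains and from -0.133 to 0.029 for type IV. For other chains they ran from -0.142 to 0.278. The type IV sign changed without replicate 2 with glutamine, and that of other chains without replicate 1 of the deprived group. Type IV with COL15A1, COL18A1 and COL7A1 added had -0.063. Of 555 values of 37 chains under 15 alternatives, 507 kept their sign and call, 44 gained a call and 4 reversed. With 1 library left out, COL18A1 ran from -0.062 to 0.448, COL8A2 from -0.009 to 0.331 and COL9A3 from -0.333 to 0.668, each reversing without replicate 1 of the group without glutamine. COL5A3 ran from -0.141 to 0.413 and reversed without replicate 1 with glutamine. Scalings shifted the all-gene median log2 fold change by at most -0.044. Depth limits the chains under 50 counts, COL4A3, COL4A4, COL6A5, COL10A1, COL19A1, COL20A1 and COL21A1.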
